A study of Mus musculus with 6 samples.

Results

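The genes described here are 50 genes of DNA replication and S phase. They were chosen by name for their known roles, by a rule that uses no measured value, but with earlier results of these data known. They were followed in mouse MC38 colon carcinoma cells sorted out of tumour-bearing livers. All 50 had at least 1 probe on the array, 93 probes in all, and 48 of them were measured, out of 9483 genes tested. Tumours were seeded by injecting MC38 cells into the spleen, and every mouse carried the CD11bDTR transgene, in which the CD11b promoter drives the diphtheria toxin receptor. The 3 PBS samples came from mice given PBS and the 3 DT samples from mice given diphtheria toxin (DT), by intraperitoneal injection on days 7 and 9, with the livers collected on day 10. No group received DT without the transgene, so that effects of the toxin and of myeloid depletion cannot be told apart, and the age of the mice is not given in the sources used here. RNA of each sample was read on its own Illumina bead array. Whether a sample is 1 mouse or a pool is not given in the sources used here, so a p-value reflects only how far these samples scatter, and that scatter may be technical.

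DNA replication begins with licensing. The origin recognition complex (ORC) marks origins, and Cdc6 and Cdt1 load the ring-shaped MCM helicase there, a step that geminin (Gmnn) blocks by binding Cdt1. In S phase, Cdc45 and the GINS complex join MCM to form the working helicase, primase and the replicative polymerases copy the strands, the replication factor C (RFC) complex loads the sliding clamp Pcna, and the lagging-strand pieces are trimmed and joined by Fen1 and Lig1. Deoxynucleotides come from ribonucleotide reductase, thymidylate synthase, thymidine kinase and dUTPase, and many of these genes are known targets of the E2F transcription factors, which cyclin E kinase helps to release from the retinoblastoma protein. In growing tumours, transcripts of this set are known to mark cycling cells.

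The promoters of the set are shown first, because the E2F motif is a feature of many replication genes that the choice of members did not use. RefSeq promoters (build GRCm38.p6, from 250 bases before to 50 after the gene start, 300 bases in all) were found for 41 of the 50 genes. The motif was searched on both strands as TTTCCCGC, TTTGGCGC, TTTCGCGC or TTTGCCGC. It was present in 15 of the 47 promoters of these 41 genes (31.9%), against 744 of all 32851 promoters (2.26%). The shorter CCAAT box, bound by NF-Y, was present in 53.2% of the members' promoters and in 37.4% of all. The following stretches of 30 bases are given 5′ to 3′ on the strand of the gene, with the first match in the promoter in capitals. The stretch of Mcm6, whose promoter holds 3 matches, has a further match that overlaps the capitals and runs on into the lower case. The stretches belong to the motif holders with the most negative differences after DT that are described in full below, and to Mcm6 and Orc3 for contrast.
Pole2: cgtcggcggtgGCGCCAAAtcgcgaacatg
Pold1: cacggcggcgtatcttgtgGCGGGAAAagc
Cdt1: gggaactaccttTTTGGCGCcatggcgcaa
Lig1: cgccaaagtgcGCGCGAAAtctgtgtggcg
Mcm6: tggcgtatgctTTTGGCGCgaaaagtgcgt
Orc3: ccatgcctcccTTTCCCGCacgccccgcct
These stretches lie at chr12:69228162-69228191 (minus strand) for Pole2, chr7:44548766-44548795 (minus strand) for Pold1 and chr8:122568035-122568064 (plus strand) for Cdt1. Those of Lig1, from 1 of its listed starts, Mcm6 and Orc3 lie at chr7:13278841-13278870 (plus strand), chr1:128359797-128359826 (minus strand) and chr4:34614965-34614994 (minus strand). The motif holders did not share a direction after DT. Their median difference between DT and PBS was −0.13 on the log2 scale over 14 measured genes, of which 9 were negative, beside 0.069 over the 25 measured genes with a promoter but without the motif, of which 12 were negative. A match is a run of letters, and binding was not measured here.

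After DT, no gene of the set passed an adjusted p of 0.05, and the set did not move one way. Of the 48 measured genes, 21 had a positive and 27 a negative difference, with a median of −0.063 on the log2 scale beside 0.011 over all 9483 genes tested. Over all genes, 1.09% passed the threshold. The smallest adjusted p of a member was 0.0568 (limma, Benjamini-Hochberg adjustment over all genes), shared by Pold1, Rpa2 and Chaf1b, followed by Pole2 at 0.0604. All 4 were lower in DT. An unadjusted p under 0.05 was reached by 13 members (27.1%) beside 23.9% of all genes, so that the share of members at this level is near that of the array. It was farther from it with no filter, at 30% of members beside 15.4% of genes, and without DT replicate 2, at 22.9% beside 13.7%, where no member passed the adjusted threshold. With no filter, genes not above background enter the share of all genes, while the members only rise from 48 to 50. Members with an unadjusted p under 0.05 rise from 13 to 15 there. Why the 2 shares were less alike in these settings was not tested. Of the 13 members found with the filter and all arrays, 6 were higher in DT (12.5%, beside 12% of all genes) and 7 lower (14.6%, beside 11.9%). The 3 DT values lay wholly above or below the 3 PBS values in 14 members (29.2%), beside 28.9% of all genes. In 8 of these 14 DT was higher, and over all genes 15% were separated with DT higher and 14% with DT lower. In 12 of 20 alternative settings no member passed, and in the other 8 between 2 and 8 did, of which at most 2 were higher. In each of these 8 settings more genes of the whole array passed as well, with the counts given at the end. That both counts rose does not show that the 2 shares were alike. The share of members that passed was the larger in several of these settings, and this was not tested. Without DT replicate 3, Pold1, Rpa2, Chaf1b and Pole2 passed, with adjusted p-values of 0.0247 to 0.0316 in limma.

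**Figure D1:**
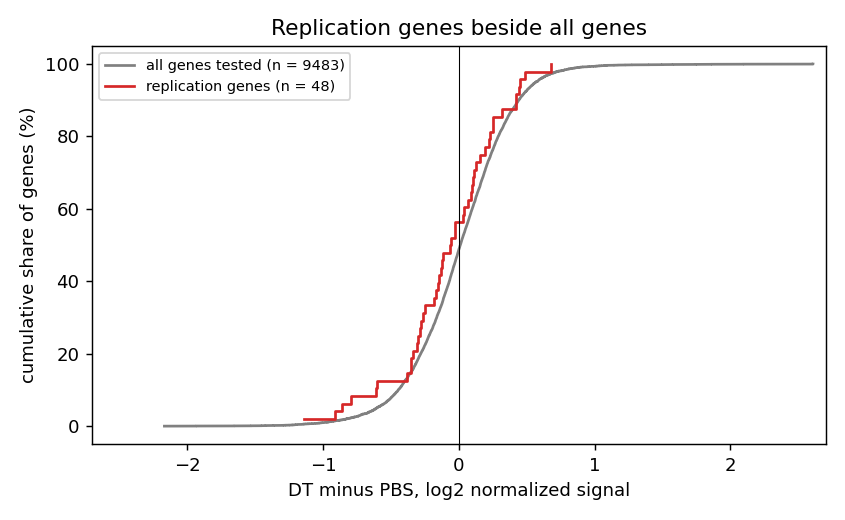
Cumulative share of genes (percent, vertical axis) at or below each difference between DT and PBS (log2 normalized signal, horizontal axis), for the 48 measured replication genes and for all 9483 genes tested. The members' curve runs close to that of all genes, with medians of −0.063 and 0.011.

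Among the licensing genes, the subunits of the MCM helicase gave small differences in the probes used. The 6 subunits Mcm2 to Mcm7 had differences between −0.17 and 0.091 on the log2 scale, and their 95% intervals, taken gene by gene, reached from −0.65 to 0.46. Mcm3 and Mcm6 were positive and the others negative. The smallest adjusted p among them was 0.594 in limma. Mcm5, for example, gave normalized log2 signals, listed for replicates 1 to 3 here and below, of 11.27, 11.07 and 11.43 in PBS and 11.24, 10.92 and 11.14 in DT, so that the groups overlapped. Mcm7 gave 8.96, 8.88 and 8.85 in PBS and 8.74, 8.88 and 8.90 in DT. These values come from the probe with the highest mean signal of each gene, and the other probes of Mcm6 and Mcm7 are described below. For Mcm7 this choice hung on the DT arrays. Its other measured probe had the higher mean in PBS, 9.42 beside 8.90, and the lower mean in DT, 7.96 beside 8.84.

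The loaders of the helicase and their inhibitor differed more. Cdt1, which brings MCM to the origin, gave 10.65, 10.25 and 10.67 in PBS and 9.60, 9.89 and 10.28 in DT. DT replicate 3 lay above PBS replicate 2, so the groups overlapped. The difference was −0.60 (SE 0.20), from 10.52 ± 0.24 to 9.92 ± 0.34 (SD, n = 3), with an adjusted p of 0.123 in limma. Gmnn, the inhibitor of Cdt1, was picked for full values after its values were seen. It gave 5.40, 5.19 and 5.57 in PBS and 5.86, 5.95 and 5.70 in DT, with no overlap, near background and above it on 2 of the 3 PBS arrays. The difference was 0.45 (SE 0.16; limma, adjusted p = 0.137). Cdc6, the partner of Cdt1 in loading, gave 0.13 with overlapping groups. The log2 ratio of Cdt1 to Gmnn within each array, a pair also picked after its values were seen and given without a test, was set to a PBS mean of 0. It was 0.11, −0.077 and −0.032 in PBS and −1.39, −1.20 and −0.55 in DT, below every PBS array in all 3 DT arrays.

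The measured ORC subunits went both ways. Orc5 gave 8.09, 8.10 and 8.18 in PBS and 8.71, 8.46 and 8.45 in DT, higher on every DT array. Its difference was 0.42 (SE 0.15; limma, adjusted p = 0.134), from 8.12 ± 0.050 to 8.54 ± 0.14 (SD, n = 3), and its second probe gave 0.41. Orc3 gave 0.31, without overlap, and Orc6 0.23. Orc1, the subunit that is regulated in the cell cycle, gave −0.38 with overlapping groups. Orc2 was not measured, since neither of its probes lay above background on 3 arrays. Over the 13 measured licensing genes 7 differences were positive, and the median was 0.029.

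Among the factors that turn MCM into an active helicase, Mcm10, which helps to activate it, had the lowest difference. It gave 9.99, 9.74 and 10.23 in PBS and 9.48, 9.07 and 9.57 in DT, with every DT array below every PBS array. The difference was −0.61 (SE 0.19; limma, adjusted p = 0.104), from 9.98 ± 0.25 to 9.37 ± 0.26 (SD, n = 3). A second, dimmer measured probe of Mcm10 gave −0.17 with overlapping groups. The helicase cofactors Gins4, Gins1, Gins3 and Gins2 gave −0.18, −0.029, 0.036 and 0.16, and Cdc45, the other partner of MCM, gave −0.067, all with overlapping groups. Gins4 gave 10.06, 9.57 and 9.96 in PBS and 9.79, 9.60 and 9.66 in DT, from 9.86 ± 0.26 to 9.68 ± 0.099 (SD, n = 3), with an SE of 0.17 and an adjusted p of 0.546 in limma. Gins1 gave 7.71, 5.56 and 7.84 in PBS and 6.99, 7.01 and 7.04 in DT, so that PBS replicate 2 was far below the other 5 arrays and the SD in PBS was 1.28.

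The polymerase and primase genes had the lowest median among the 4 role groups with more than 5 measured genes, −0.33 over 8 measured genes, of which 6 were negative. Pold1, the catalytic subunit of polymerase delta, gave 11.22, 10.98 and 11.31 in PBS and 10.21, 10.05 and 10.68 in DT. All DT arrays were below all PBS arrays. The difference was −0.86 (SE 0.19; limma, adjusted p = 0.0568), from 11.17 ± 0.17 to 10.31 ± 0.33 (SD, n = 3), or 0.552 times the PBS level. Its partners did not follow in size. The accessory subunit Pold2 gave 0.25, higher on every DT array (adjusted p = 0.333), and Pold3 gave −0.12 with overlapping groups.

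Pole2, the second subunit of polymerase epsilon, had the most negative difference of all members in the processing used here. It gave 6.27, 5.77 and 6.73 in PBS and 4.85, 4.86 and 5.63 in DT, where it was detected on 1 of the 3 arrays, so that its DT level is close to the floor of the measurement. The difference was −1.14 (SE 0.28; limma, adjusted p = 0.0604), from 6.26 ± 0.48 to 5.11 ± 0.45 (SD, n = 3), without overlap of the groups. Its size depends on the background step: it was −0.69 when the offset was raised to 50 and −0.36 when no background was removed. Pold1 was lower than Pole2 in both settings, at −0.84 and −0.80, so that the rank of Pole2 depends on this step as well. The catalytic subunit Pole gave −0.31 with overlapping groups. The platform annotation assigns the Pole2 probe to a record other than a RefSeq mRNA, and the second Pole2 probe, assigned to a RefSeq mRNA, was not above background on any array. Pola2 and Prim2, of the polymerase alpha and primase complex that lays down primers, both gave −0.35, and Prim1, the catalytic primase subunit, 0.069, all with overlapping groups. The other measured probe of Prim2 gave −0.030. Pola1 was not above background on any array.

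**Figure D2:**
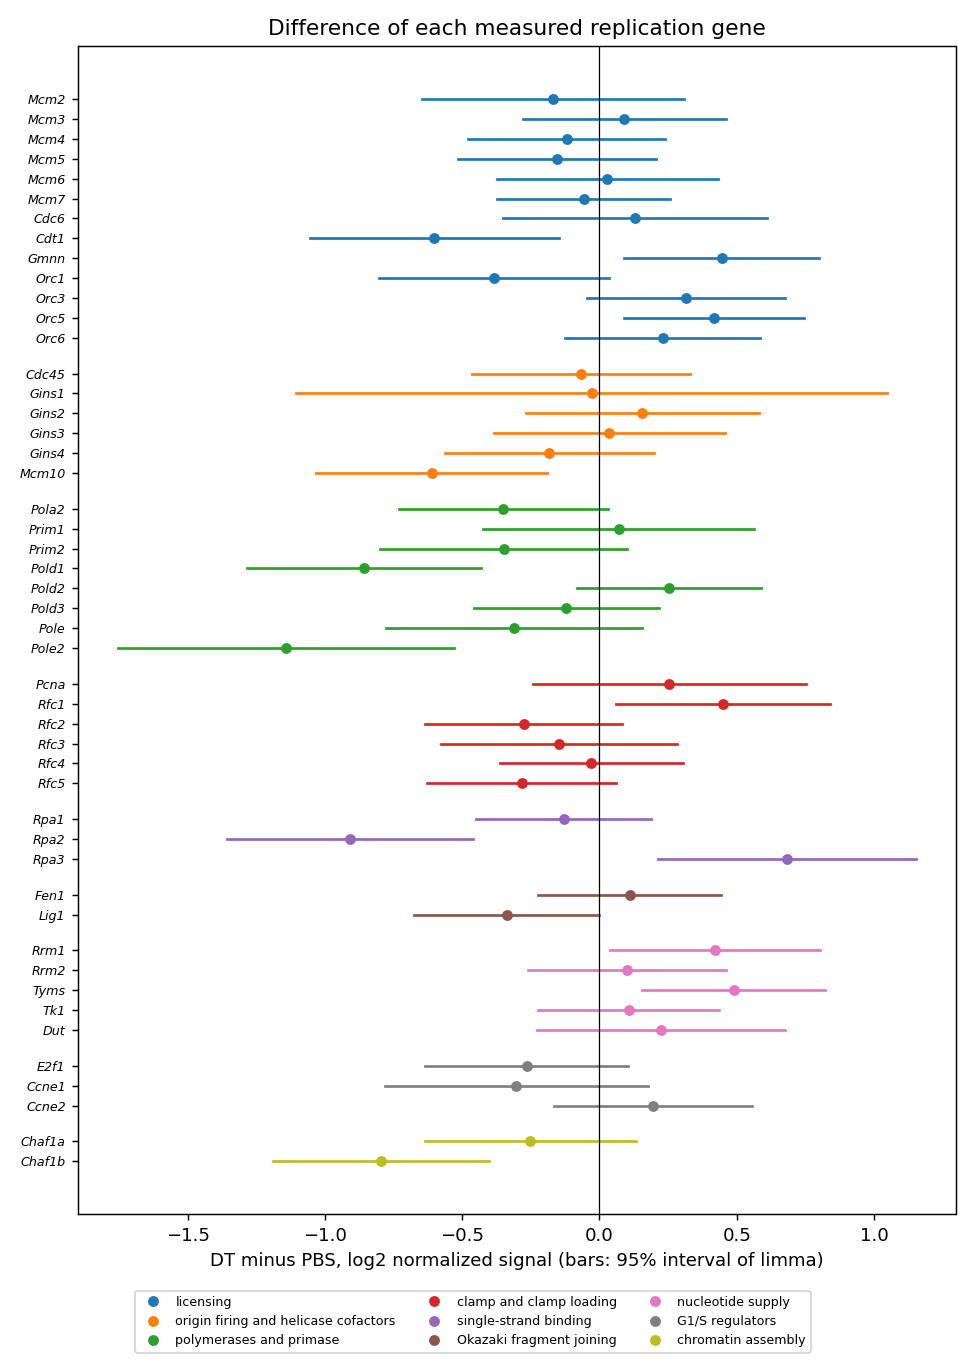
Difference between DT and PBS (log2 normalized signal, horizontal axis) for each measured replication gene, with points at the limma estimate, bars for its 95% interval and colours for the role groups (3 DT and 3 PBS arrays). The nucleotide supply genes all lie to the right of 0, and the points farthest to the left are Pole2 (−1.14), Rpa2 (−0.91), Pold1 (−0.86) and Chaf1b (−0.80).

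Clamp loading showed no common direction. The sliding clamp Pcna gave 9.30, 9.90 and 9.52 in PBS and 9.39, 10.04 and 10.05 in DT, a difference of 0.25 (SE 0.22; limma, adjusted p = 0.519) with overlapping groups. Rfc1, the large subunit of the clamp loader, gave 8.68, 8.57 and 8.93 in PBS and 9.44, 9.11 and 8.98 in DT, higher on every DT array. Its difference was 0.45 (SE 0.18; limma, adjusted p = 0.161), from 8.73 ± 0.18 to 9.18 ± 0.24 (SD, n = 3). The small subunits Rfc2 to Rfc5 ranged from −0.28 to −0.029, all with overlapping groups. Other probes turned the sign for Rfc2, where the 3 gave −0.033, 0.086 and 0.21, and for Rfc4, where the second gave 0.34. Rfc5, which had the smallest p of these, gave 9.05, 9.34 and 9.37 in PBS and 9.07, 8.88 and 8.96 in DT. Its difference was −0.28 (SE 0.16; limma, adjusted p = 0.292), from 9.25 ± 0.18 to 8.97 ± 0.094 (SD, n = 3). The median over the 6 genes was −0.088.

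The single-strand binding genes, whose products form the replication protein A complex, had both directions in 1 complex. Rpa3, the smallest subunit, gave 10.01, 10.84 and 10.45 in PBS and 11.28, 11.09 and 10.97 in DT. Every DT array was above every PBS array, and the difference was 0.68 (SE 0.21; limma, adjusted p = 0.104), from 10.43 ± 0.41 to 11.11 ± 0.16 (SD, n = 3). Rpa2, the middle subunit, gave 8.45, 8.48 and 8.72 in PBS and 7.61, 7.27 and 8.03 in DT, below every PBS array. Its difference was −0.91 (SE 0.20; limma, adjusted p = 0.0568), from 8.55 ± 0.15 to 7.64 ± 0.38 (SD, n = 3). This value comes from a probe that is not assigned to a RefSeq mRNA, and the 2 Rpa2 probes assigned to a RefSeq mRNA gave 0.11 and 0.33, so that the direction for Rpa2 depends on the probe. The large subunit Rpa1 gave −0.13, from 11.71 ± 0.051 to 11.58 ± 0.10 (SD, n = 3), with overlapping groups.

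Nucleotide supply was the role group in which all measured members had a positive difference, 5 of 5 with a median of 0.22, although 1 other probe each of Rrm1 and Tk1 gave −0.77 and −0.35. Tyms, thymidylate synthase, gave 9.68, 9.53 and 9.74 in PBS and 9.997, 10.17 and 10.25 in DT. All DT arrays lay above all PBS arrays, and the difference was 0.49 (SE 0.15; limma, adjusted p = 0.102), from 9.65 ± 0.11 to 10.14 ± 0.13 (SD, n = 3). Its second measured probe gave 0.30. Rrm1, the large subunit of ribonucleotide reductase, gave 8.71, 9.03 and 8.78 in PBS and 9.51, 9.24 and 9.04 in DT, with no overlap. Its difference was 0.42 (SE 0.17; limma, adjusted p = 0.174), from 8.84 ± 0.17 to 9.26 ± 0.23 (SD, n = 3). Dut, the dUTPase, gave 0.22, and Tk1 and Rrm2, thymidine kinase and the small reductase subunit, gave 0.11 and 0.10, the 3 of them with overlapping groups. The mean over the 5 genes, relative to PBS, was −0.056, 0.049 and 0.0067 in PBS and 0.24, 0.32 and 0.25 in DT. By contrast, the mean over the polymerase and primase genes was −0.089, −0.11 and 0.20 in PBS and −0.47, −0.46 and −0.12 in DT, where DT replicate 3 lay just below PBS replicates 1 and 2. The means of the licensing and clamp genes overlapped between the groups. These means are a description, without a test.

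**Figure D3:**
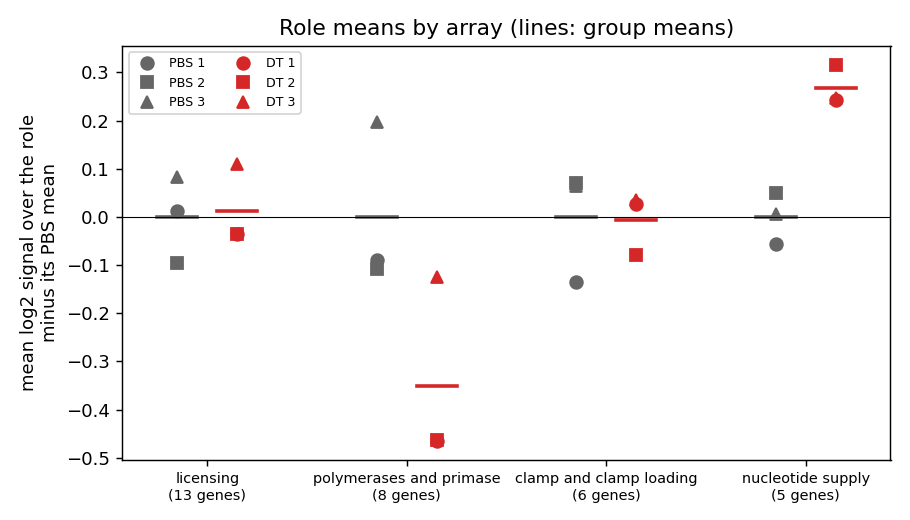
Mean log2 normalized signal over the measured genes of 4 role groups, relative to the PBS mean (vertical axis), with a point for each array (grey for PBS, red for DT, shapes for replicates 1 to 3) and lines at group means. Nucleotide supply stands at 0.24 to 0.32 in DT, polymerases and primase at −0.47 to −0.12, and licensing and clamp loading overlap PBS.

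The smaller groups held 1 further gene near the threshold. Chaf1b, a subunit of the chromatin assembly factor that places histones behind the fork, gave 9.17, 9.06 and 9.36 in PBS and 8.38, 8.14 and 8.68 in DT, lower on every DT array. Its difference was −0.80 (SE 0.18; limma, adjusted p = 0.0568), from 9.20 ± 0.15 to 8.40 ± 0.27 (SD, n = 3), and its partner Chaf1a gave −0.25 with overlapping groups. Lig1, the ligase that joins lagging-strand pieces, gave 10.12, 9.90 and 10.20 in PBS and 9.70, 9.67 and 9.83 in DT, without overlap. Its difference was −0.34 (SE 0.15; limma, adjusted p = 0.207), from 10.07 ± 0.16 to 9.73 ± 0.085 (SD, n = 3), while Fen1, the nuclease that trims these pieces, gave 0.11 with overlapping groups. Among the regulators of entry into S phase, the transcription factor E2f1 gave 10.07, 10.23 and 10.33 in PBS and 9.79, 9.84 and 10.20 in DT. Its difference was −0.27 (SE 0.17; limma, adjusted p = 0.356), from 10.21 ± 0.13 to 9.94 ± 0.23 (SD, n = 3). The cyclin Ccne1 gave 5.48, 5.44 and 5.70 in PBS and 5.16, 5.71 and 4.84 in DT. Its difference was −0.30 (SE 0.22; limma, adjusted p = 0.42), from 5.54 ± 0.14 to 5.24 ± 0.44 (SD, n = 3), and that of Ccne2 was 0.20. The groups overlapped for these 3 genes. Ccne1 was detected on 2 of the 3 DT arrays.

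**Figure D4:**
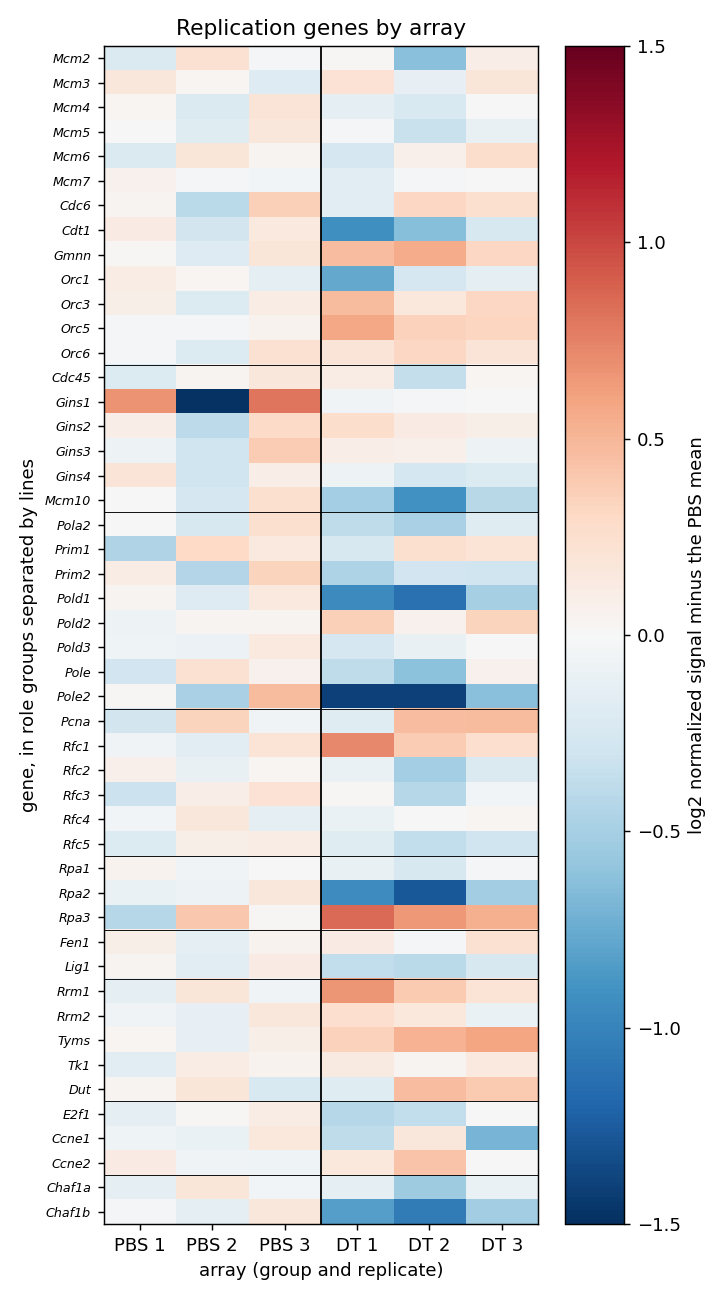
Log2 normalized signal minus the PBS mean (colour) of the 48 measured replication genes (rows, in role groups separated by lines) on the 6 arrays (columns). Blue rows in DT, such as Pold1, Pole2, Rpa2 and Chaf1b, stand beside red rows such as Rpa3, Tyms and Rrm1, and Gins1 on PBS replicate 2 is the darkest single cell outside DT.

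Probes of the same gene did not always give the same difference. Of the 93 member probes 74 were measured, and 17 genes had several measured probes, of which 11 had the same sign in all. Orc5, Rfc5 and Cdc6 had the narrowest gaps between probes, of 0.0088, 0.087 and 0.10. The widest gap, 1.41, was in Mcm7. Its second probe (ILMN_2673889), also assigned to a RefSeq mRNA, gave 8.98, 9.50 and 9.79 in PBS and 8.08, 7.07 and 8.72 in DT, below every PBS array. The difference there was −1.46 (SE 0.36; adjusted p = 0.0626 with limma over every measured probe), beside −0.058 for the probe used above. In Rrm1, a probe not assigned to a RefSeq mRNA gave −0.77 (SE 0.20), against 0.42 and 0.19 in the other 2. The 4 Lig1 probes ranged from −0.80 to 0.28. In Mcm6 the 3 other probes gave 0.36, 0.43 and 0.44, against 0.029 for the brightest, and in Gins2 the other 2 gave 0.53 and 0.54, against 0.16. With every measured probe tested, no member probe passed. Which of the disagreeing probes measures the main transcript was not tested.

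**Figure D5:**
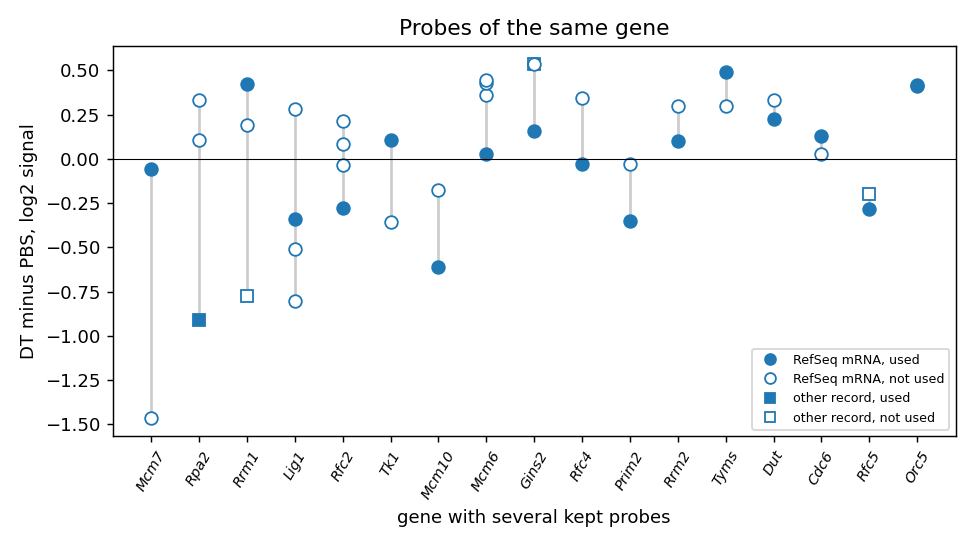
Difference between DT and PBS (log2 signal, vertical axis) for each measured probe of the 17 replication genes with several measured probes (horizontal axis, ordered by the gap between probes), filled where the probe was used for the gene and square where the platform annotation names a record other than a RefSeq mRNA. Mcm7, Rpa2, Rrm1 and Lig1 have gaps of more than 1, and Orc5 has the narrowest.

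Further replication and S phase genes, from a list that also holds fork protection, nucleotide, checkpoint and cell cycle regulator genes, were lower more often than higher. Of 57 measured, 38 had a negative difference, the median was −0.18, and an unadjusted p under 0.05 was reached by 18 lower (31.6%) and 4 higher genes (7.02%), beside 11.9% and 12% of all genes. None passed an adjusted p of 0.05. Like the members, this list and the mitosis genes below were chosen with earlier results of these data known. Their counts are therefore a description, without a test. The checkpoint scaffold Topbp1 gave −0.96 (SE 0.22; limma, adjusted p = 0.0573) and the topoisomerase Top2a −0.95 (SE 0.22; limma, adjusted p = 0.0573). The cell cycle inhibitor Cdkn1b gave −0.91 (SE 0.23; limma, adjusted p = 0.0647), while the histone-binding protein Rbbp7 gave 0.77 (SE 0.19; limma, adjusted p = 0.0646). Of 24 measured mitosis genes 19 were negative, but the median was −0.050 and an unadjusted p under 0.05 was reached by 1 higher and 2 lower genes. The kinesin Kif11 gave 0.46 and the kinases Ttk, Plk1 and Aurka gave −0.47, −0.43 and −0.29; their adjusted p in limma lay between 0.154 and 0.29.

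The arrays had median signals between 135 and 153.8 with 36.7% to 40.6% of probes above background, and their number limits the precision. Of 10 epithelial markers, Epcam, Krt18, Krt19, Krt20, Vil1, Cdx2 and Cldn4 were not above background on any array, while Cdh1, Krt8 and Lgals4 were measured, with differences from −0.12 to 0.17. Markers of other cell types differed between the groups. Of 16 measured macrophage and monocyte genes 15 were negative, with a list mean, relative to PBS, of −0.66 to 0.38 in PBS and −0.81 to −0.62 in DT, where PBS replicate 3 stood at the DT level. No array detected Ccr2, Clec4f or Itgam, the last of which encodes CD11b. Of 7 measured neutrophil genes 5 were positive and 2 negative, with list means of −0.25 to 0.30 in PBS and 0.76 to 1.54 in DT. Lcn2, Retnlg and S100a8 passed and were higher in DT, while Csf3r gave −0.50 without overlap and Elane −0.21. Lcn2, Retnlg and Ltf were above background on 0 PBS arrays and on 3 DT arrays, so they were kept only through DT. Their direction, and with it part of the list mean, was thus fixed by the filter. S100a8, Csf3r, Elane and Ltf were named after their values were seen. Of 10 measured fibroblast and stellate cell genes 8 were positive, with list means of −0.30 to 0.30 and of 0.55 to 0.71. Dpt and Islr passed and were higher in DT, while Col1a1 and Col1a2, named after their values were seen, gave −0.14 and −0.15. No array detected 7 of the 10 hepatocyte markers, and 3 of 10 lymphocyte and 1 of 8 endothelial markers were measured, of which none passed. In such bulk samples, fewer cells of a type and less RNA per cell cannot be told apart, and the part of these markers in the replication genes' values was not tested. Without PBS replicate 3, no member passed either.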

How the data were processed

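Per the labels' protocols, RNA of the sorted MC38 cells was isolated with Trizol, and biotin-labelled material was made by oligo-dT priming with an Illumina kit. The deposited table gives, per the file headers, 1 linear intensity for each probe on each array, not normalized, beside its detection p-value. A second table the authors deposited holds normalized log2 values. How they were made is not given in the sources used here, and they served as an alternative only. Within an array, the order of these values is that of the intensities (Spearman at least 0.999998), with medians from 4.75 to 4.95.

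Genes came from the platform annotation, with symbols updated through Entrez identifiers. Of 45281 probes, 34885 had 1 gene, 18 several and 10378 none. R 4.3.3 and limma 3.58.1 were used, with neqc for the signals (normexp background from the detection p-values, offset 16, quantile normalization, log2). Differences of dim genes are shrunk by the offset, and a shift common to all genes is lost in the quantile step. A probe was kept if its detection p was under 0.05 on 3 or more arrays, which left 17759. The kept probe with the highest mean stood for its gene. The test was the two-sided moderated one of lmFit and eBayes, p-values were adjusted over 9483 genes by Benjamini-Hochberg, and the threshold was 0.05. Differences are DT minus PBS. The fit was tested on simulated data. Alternatives changed the background, normalization, filter, choice of probe, model and threshold, or left out 1 array.

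Members and lists were chosen with earlier results of these data known. Full values were given for members past the threshold and, per role, for the 2 with the smallest p (1 in roles of 2 genes). Array values or group means were also given outside this rule for Gmnn, Pcna, Mcm5, Mcm7, Gins1 and Rpa1. Of the further replication and mitosis genes, the 4 with the smallest p were named. Figures were drawn with matplotlib 3.10.9.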

Additional observations from a re-analysis of the deposited data

How the results depend on the processing

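The count of members past the threshold, 0 of 48, was 7 with a normexp offset of 50 (2 higher, 5 lower), 4 without background correction, 2 with the deposited normalized values, 3 with a detection p under 0.01, 8 with an intensity trend, 7 with array weights and 4 with an adjusted p under 0.1. Leaving out each array in turn gave 0 to 4, with 4, Pold1, Chaf1b, Rpa2 and Pole2, without DT replicate 3. With the replicate number as a block it was 0 in limma, with an unadjusted p under 0.05 in 11. Deviations of same-numbered arrays from their group means correlated at −0.10, −0.18 and 0.030. What the replicate numbers stand for is not given in the sources used here, and these values alone cannot exclude a pairing. Over the whole array 103 genes passed (31 higher, 72 lower). The count was 654 with an offset of 50, 558 without background correction, 313 with the deposited values, 264 with a detection p under 0.01, 772 with a trend, 1059 with weights, 755 with an adjusted p under 0.1, 30 with the replicate block, 28 with probes assigned to a RefSeq mRNA, a setting chosen after seeing the data, and 27 with scaling to a common median (20 higher, 7 lower). It was 0 with no filter and 0 in an unmoderated linear model in limma, where 15.4% and 18.8% of genes, and 30% and 18.75% of members, had an unadjusted p under 0.05. Leaving out each array in turn gave 0 to 389, of which 63 and 3 came from omitting PBS replicates 1 and 2, and 4, 0 and 389 from omitting DT replicates 1, 2 and 3. Without DT replicate 2, an unadjusted limma p under 0.05 was reached by 13.7% of genes and 22.9% of members. The cause was not tested.

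Scaling to a common median moved the median of all genes to 0.17 and that of the members to 0.10. By role it gave 0.18 for licensing, 0.091 for clamp loading, 0.091 for single-strand binding, 0.12 for lagging-strand joining, 0.38 for nucleotide supply, −0.038 for entry into S phase and −0.34 for chromatin assembly, and Gins4 turned to 0.051. The clamp median was 0.077 with the mean of all probes, where Rrm1 turned to −0.054. With probes assigned to a RefSeq mRNA the single-strand binding median and Rpa2 turned to 0.11. The nucleotide supply median was 0.11 without background correction and 0.31 with weights, and the median for entry into S phase was −0.081 without background correction. Leaving out each array in turn gave medians of −0.088 to 0.040 for licensing, 0.14 to 0.32 for nucleotide supply and −0.31 to −0.11 for entry into S phase. Of the 16 members that the naming rule picked for full values, Pold1 and Chaf1b passed in 6 and Rpa2 in 7 of 18 alternatives, and Pole2 in 5 of 17. Rpa3 and Tyms, both higher in DT, passed in 3 of 18, as did Mcm10, and Cdt1 passed in 2 of 18. The others passed in none.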
